A study of Dunaliella viridis with 39 samples.

Results

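The 151 loci described here are abundant transcripts of the salt-tolerant green alga Dunaliella viridis that were moderately lower in cultures without nitrogen than in cultures on nitrate. They were chosen by their measured values from the 18495 loci of the deposited count table, after the counts were divided by median-of-ratios size factors and averaged over the 3 libraries of a group. A locus was kept when its nitrate level at 27 h was at least 1000 normalised counts, when its log2 ratio of no nitrogen to nitrate (with a pseudocount of 10) was above -2 and at most -1 at 27 h and at most -1 at 51 h, and when its log2 ratio of glutamine to nitrate at 3 h was above -1. Of the 698 loci that reached the level, 198 had a 27 h ratio in that range, 47 of these were dropped by the 51 h threshold and 0 by the glutamine threshold, which left 151. The other 547 loci at that level are called the other abundant loci below.

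The cells were of strain dumsii, kept at 23.5 °C with lamps of 125 µmol photons m-2 s-1 on without a dark phase, and every treatment culture was started from an inoculum grown on nitrate. The treatment media held no nitrogen, 5 mM L-glutamate, 5 mM L-glutamine or 5 mM KNO3 (nitrate), and RNA was taken 3, 27 and 51 h after inoculation. Together with the inoculum this gave 13 groups of 3 libraries, 39 in all, from 3 repeats of the whole experiment that each had an inoculum of their own. The labels describe glutamate as a stable amino acid that the cells do not use, included as a control for starvation in the presence of an amino acid.

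Nitrate is reduced inside the algal cell to nitrite and then to ammonium, which glutamine synthetase and glutamate synthase build into glutamine and glutamate, and from there nitrogen reaches the other amino acids, nucleotides and chlorophyll. When nitrogen runs out, green algae are known to slow their growth, to cut back photosynthesis and protein synthesis, and to store carbon as starch and neutral lipid. The files give the loci as numbers without gene names, so which of these functions the 151 loci serve is not stated here, and no sequence is printed for them.

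The libraries held 3342102 to 41114965 counts (median 10192407). Levels are given as CPM, which are counts per 1000000 of a library size scaled by the trimmed mean of M-values (TMM), whose scaling factors ran from 0.617 to 2.16. An earlier analysis of these data had set 3 libraries apart, and results are also given without them. They were replicate 3 of glutamate at 51 h (factor 2.16, against 1.01 and 1.48 in its group), replicate 1 of no nitrogen at 51 h (0.676, against 1.38 and 1.18) and replicate 2 of nitrate at 3 h (1.78, against 0.680 and 1.09). The factor of replicate 3 of glutamate at 51 h does not single it out. Replicate 1 of glutamine at 3 h (0.622, against 1.08 and 1.201) and replicate 1 of glutamate at 3 h (0.617, against 1.02 and 1.13) lay about as far from their groups. The no nitrogen and nitrate libraries set apart lay somewhat farther. Replicate 3 of glutamate and replicate 1 of no nitrogen at 51 h had the lowest total counts of all libraries, 3342102 and 3406918. All values are shares of the RNA in a library, so that a lower share and less of a transcript per cell cannot be told apart. The libraries were sequenced in 2 runs, each of which held libraries of every medium and time. Replicate 1 was in run 1 and replicate 3 in run 2 throughout. Replicate 2 was in run 1 at 3 h, in run 2 at 51 h and in the inoculum, and at 27 h in run 2 for glutamine only. Run and replicate number can therefore not be fully told apart.

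The loci were well covered, since the lowest count of any of them in any library was 29 and the median was 1262. In nitrate at 27 h their mean levels ran from 104.5 to 12938 CPM with a median of 177 CPM, against a median of 5.63 CPM over the 17569 loci tested. Only 6 of the 151 reached 1000 CPM there. Per length, in TPM (transcripts per 1000000), the median was 145 TPM with a range of 28.3 to 17030 TPM, against a median of 4.33 TPM over all loci. A relative length, taken from the ratio of counts to TPM, was set for the 2925 loci with enough counts (at least 50) and TPM in every library. These included 148 of the 151, whose median was 0.816 times that of the 2925, against 0.879 times for 509 of the other abundant loci. The spread between replicates was small. The median coefficient of variation within a group was 11.8% for the 151 loci and 12.9% for the other abundant loci.

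The values that chose the loci are given here as a description. By edgeR's fitted values the median log2 ratio of no nitrogen to nitrate was -1.44 at 27 h (range -2.04 to -1.04) and -1.47 at 51 h (range -3.50 to -0.997), and that of glutamine to nitrate at 3 h was 0.02. At 3 h the ratio of no nitrogen to nitrate had a median of -0.23. At the thresholds, the nitrate level at 27 h was 1005 and 1014 normalised counts in Locus_4676 and Locus_3738, just inside, and 997 and 993 in Locus_3838 and Locus_5674, just outside. The 27 h log2 ratio was -1.99 in both Locus_2089 and Locus_1025, inside the lower limit, and -2.02 and -2.03 in Locus_1631 and Locus_280, outside it. At the upper limit it was -1.02 in both Locus_2707 and Locus_1027, inside, and -0.99 and -0.98 in Locus_1258 and Locus_3644, outside. The 51 h log2 ratio was -1.0005 and -1.01 in Locus_283 and Locus_1508, inside, and -0.9986 and -0.99 in Locus_934 and Locus_136, outside. For glutamine at 3 h the nearest loci were Locus_1906 at -0.45 and Locus_1014 at -0.28, both inside.

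Relative to the inoculum, the loci kept close to their starting level for 3 h in every medium and then parted by medium. The parting of no nitrogen from nitrate at 27 and 51 h was required by the choice of loci and is given as a description. The median locus stood at 98.9% of its inoculum level at 3 h, 46.4% at 27 h and 44.7% at 51 h without nitrogen. In glutamate the corresponding medians were 108%, 47.4% and 45.6%. In glutamine they were 118%, 115% and 78.1%, and in nitrate 116%, 131% and 128%. The glutamate course therefore ran beside that of no nitrogen, although no glutamate library was used to choose the loci. Glutamine and glutamate also have libraries at 27 and 51 h that the choice did not use, and the tests below are between such libraries, which come from the same 3 repeats and inocula as the libraries that were used.

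**Figure D1:**
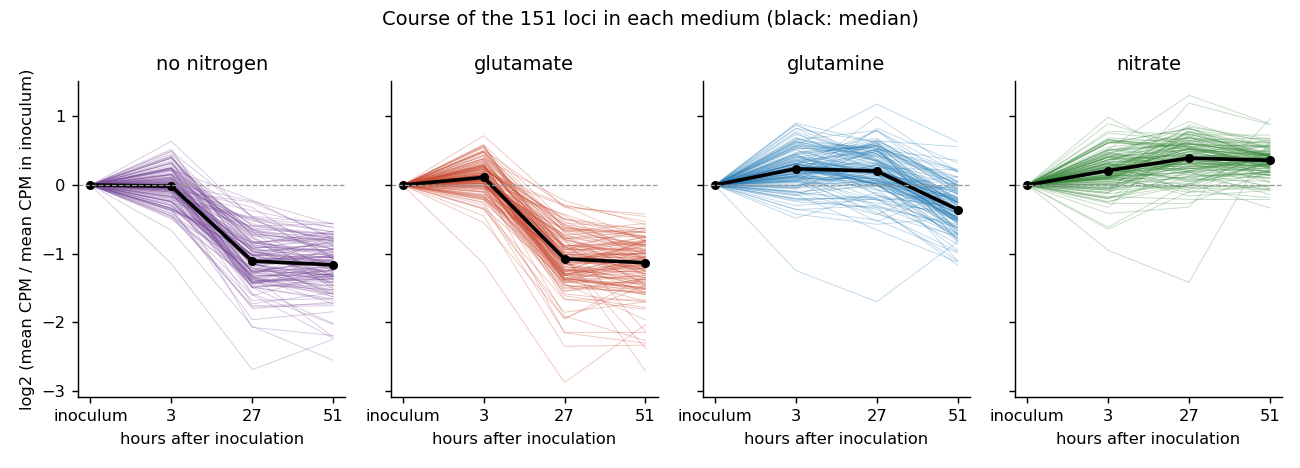
Mean level of each of the 151 loci in each medium, as the log2 ratio of its mean CPM to its mean CPM in the inoculum, against hours after inoculation. Thin lines are loci and the black line is their median, which at 27 h stands at 46.4% of the inoculum without nitrogen, 47.4% in glutamate, 115% in glutamine and 131% in nitrate. The gap between no nitrogen and nitrate at 27 and 51 h was required by the choice of loci.

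Glutamate was compared with glutamine at 27 h to see how the loci stood on 2 amino acids given at the same concentration. Of the 151 loci, 148 were lower in glutamate and 0 were higher (edgeR quasi-likelihood test with Benjamini-Hochberg adjustment over all tested loci, threshold 0.05), where 16.4% of all tested loci were called lower and 15.8% higher. Their median log2 fold change was -1.26, with quartiles of -1.49 and -1.11, against a median of 0.10 over all tested loci. The fall was at least 2-fold in 128 of them. Among the other abundant loci 184 of 547 were lower and 45 higher, with a median of -0.20. In 149 of the 151 loci all 3 glutamate libraries lay below all 3 glutamine libraries, which held for 22.3% of all tested loci.

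Summed over 148 of the loci, leaving out the 3 most abundant, the level at 27 h was 13867, 13046 and 13985 CPM in replicates 1, 2 and 3 of glutamate and 33901, 30991 and 36850.4 CPM in those of glutamine. The ratio of the group means was 0.402, and the highest glutamate library was below the lowest glutamine library. Locus_308 was the most lowered of all. It stood at 25.2, 20.5 and 20.8 CPM in the glutamate replicates and 91.2, 86.1 and 103 CPM in the glutamine replicates (log2 fold change -2.08 with SE 0.18, adjusted p = 2.95e-11 by edgeR). Locus_746 had 78.7, 101 and 73.1 CPM in glutamate and 349.7, 319 and 289.96 CPM in glutamine (log2 fold change -1.92 with SE 0.22, adjusted p = 2.06e-08 by edgeR). The libraries of both loci separated by medium with a wide gap, and replicates within a medium differed by far less.

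Among the 10 most abundant of the loci, Locus_224 was the most lowered at 27 h. It had 449.7, 402 and 382 CPM in glutamate and 1454, 1371 and 1611 CPM in glutamine (log2 fold change -1.85 with SE 0.19, adjusted p = 1.64e-09 by edgeR). Locus_660 had 384, 357 and 391 CPM in glutamate and 1077, 940.3 and 1262 CPM in glutamine (log2 fold change -1.53 with SE 0.20, adjusted p = 2.60e-07 by edgeR). Neither locus had overlapping groups. Locus_7 (-1.77, edgeR adjusted p = 9.74e-07), Locus_187 (-1.53, edgeR adjusted p = 1.85e-08), Locus_62 (-1.26, edgeR adjusted p = 1.69e-06), Locus_444 (-1.15, edgeR adjusted p = 2.68e-06) and Locus_626 (-0.98, edgeR adjusted p = 2.82e-04) were also lower in glutamate, in log2 fold change. Locus_54 (-1.83, edgeR adjusted p = 1.51e-09) and Locus_1025 (-1.83, edgeR adjusted p = 1.90e-10) completed the 5 most lowered of the 151. At the other end, the least lowered of the called loci included Locus_1647 (-0.83, edgeR adjusted p = 0.0061), Locus_473 (-0.83, edgeR adjusted p = 1.79e-04) and Locus_873 (-0.84, edgeR adjusted p = 0.0022). The call for Locus_1647 was lost without replicate 3 of glutamate, where its adjusted p by edgeR was 0.0653, and within run 1 (0.0554). Locus_873 was not called within run 1 (edgeR adjusted p = 0.0699), nor Locus_626 within run 1 (0.0725) or run 2 (0.104), each at a log2 fold change of -0.83 or below.

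At 27 h the median log2 fold change was -1.35 within run 1 and -1.31 within run 2, where all tested loci had 0.03 and 0.02. Each of these fits had 2 libraries of one medium and a lone library of the other, assumed to vary like the other groups. On log2(TPM + 1) values limma called 65 lower and 0 higher, at a median of -1.31, where 4.47% of all loci fitted were called in either direction.

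**Figure D2:**
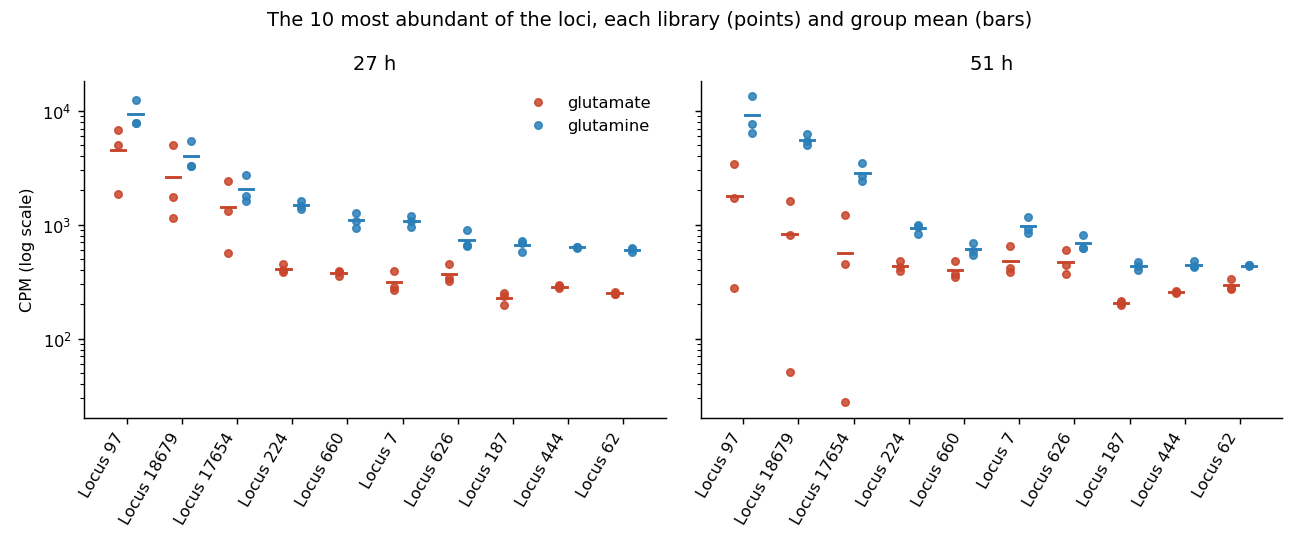
CPM on a log scale of the 10 most abundant of the loci in glutamate (left of each pair) and glutamine (right) at 27 h and 51 h, in order of their nitrate level. Points are libraries and short bars are means of 3. In the 7 loci from Locus_224 on, the glutamate libraries lie below the glutamine libraries at 27 h, while in Locus_97, Locus_18679 and Locus_17654 the glutamate libraries spread widely; on log2(TPM + 1) values Locus_660, Locus_626, Locus_444 and Locus_62 had positive fold changes at 51 h.

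At 51 h the loci were again lower in glutamate than in glutamine on TMM-scaled counts, by less than at 27 h. There were 128 lower and 0 higher, where 13.1% of all tested loci were lower and 13.2% higher. The median log2 fold change was -0.81, with quartiles of -1.03 and -0.61, against 0.06 over all tested loci, and 43 loci were at least 2-fold lower. On log2(TPM + 1) values the median of the 151 loci was 0.06 and that of all tested loci was 0.77, a difference of -0.71. There limma called 3 of the 151 lower and 0 higher, and of all loci fitted 64 lower and 5642 higher (31.0% in either direction). On TMM-scaled counts edgeR called 163 of the other abundant loci lower and 16 higher, with a median of -0.35. Across both times, 125 of the 151 loci were called lower at 27 and at 51 h, 23 were called at 27 h and not at 51 h, and 3 at 51 h and not at 27 h, and in 137 loci all 3 glutamate libraries of 51 h lay below all 3 glutamine libraries, as in 17.8% of all tested loci.

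The summed level of the 148 loci at 51 h was 13655, 12398 and 14809 CPM in the glutamate replicates and 22861, 22438 and 26725 CPM in the glutamine replicates, a ratio of group means of 0.567, which on TPM was 1.08. Summed TPM was 12860, 17877 and 32951 in the glutamate replicates and 14234, 22378 and 22626 in the glutamine replicates. On TPM glutamate was therefore below glutamine in replicates 1 and 2, and above it in replicate 3, a library set apart earlier. On the CPM scale the groups did not overlap, and the glutamine libraries lay below those of 27 h. Locus_1098 was among the most lowered of the loci outside the 3 most abundant, at 30.2, 26.6 and 31.2 CPM in glutamate and 101, 87.2 and 131 CPM in glutamine (log2 fold change -1.87 with SE 0.19, adjusted p = 1.10e-08 by edgeR). Its glutamate libraries all lay far below its glutamine libraries. Locus_308 had 18.3, 16.5 and 17.1 CPM in glutamate and 49.6, 47.9 and 60.1 CPM in glutamine (log2 fold change -1.61 with SE 0.18, adjusted p = 8.58e-08 by edgeR), again without overlap.

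The loci with the smallest difference at 51 h had come down in glutamine. Locus_2045 had 47.6, 53.2 and 59.0 CPM in glutamate and 44.0, 52.1 and 62.7 CPM in glutamine at 51 h (log2 fold change 0.00 with SE 0.16, adjusted p = 0.998 by edgeR), against 49.2, 56.4 and 65.0 CPM in glutamate and 108, 92.1 and 128 CPM in glutamine at 27 h (log2 fold change -0.94 with SE 0.16, adjusted p = 2.26e-05 by edgeR). Its groups were apart at 27 h and overlapped at 51 h. Locus_439 had 134, 148 and 157 CPM in glutamate and 159.5, 150.1 and 165 CPM in glutamine at 51 h (log2 fold change -0.11 with SE 0.16, adjusted p = 0.635 by edgeR), and Locus_456 had 248, 241 and 255 CPM in glutamate and 277, 283 and 263 CPM in glutamine (log2 fold change -0.15 with SE 0.16, adjusted p = 0.533 by edgeR). In Locus_456 the glutamate libraries stayed just below the glutamine libraries, and in Locus_439 a glutamate library lay inside the glutamine range.

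Within run 2 the count at 51 h was 121 lower (median -0.91), where 26.6% of all tested loci were called in either direction. Run 1 held a lone library of each medium and was not fitted. Leaving out a library gave 103 to 134 lower, and without replicate 2 of glutamine the median was -0.96.

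**Figure D3:**
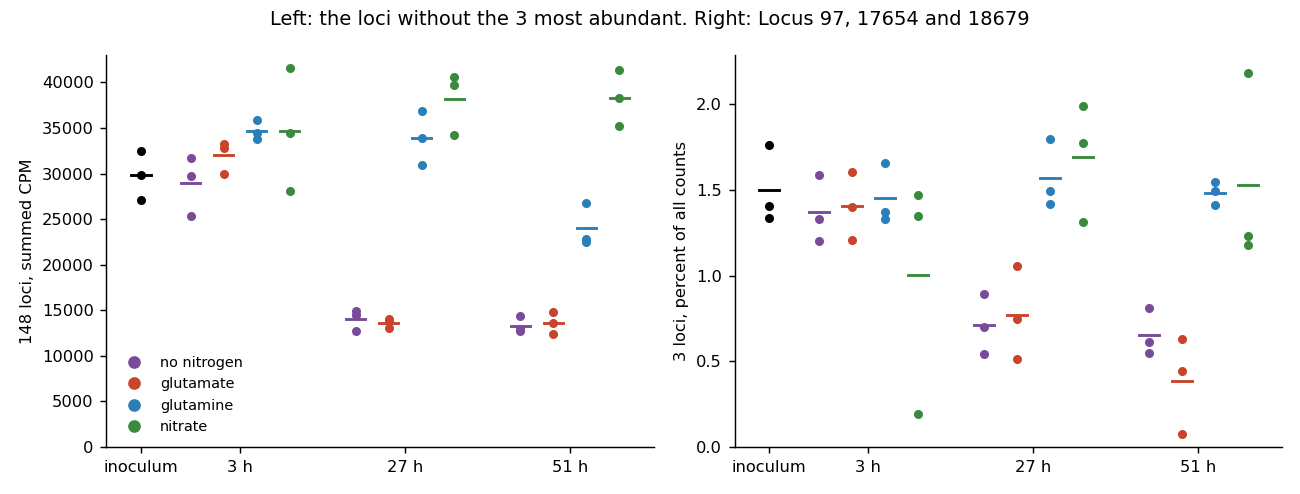
Left, CPM summed over 148 of the loci in each library, and right, the percent of all counts taken by Locus_97, Locus_17654 and Locus_18679, by time and medium. Points are libraries and short bars are means of 3. The glutamate and no nitrogen libraries of 27 and 51 h lie between 12398 and 14922 summed CPM and the glutamine libraries of 51 h between 22438 and 26725. On TPM the ratio of the group means of glutamate to glutamine at 51 h was 1.08. There glutamate was above glutamine in replicate 3 only. On the right, replicate 3 of glutamate at 51 h and replicate 2 of nitrate at 3 h are near 0.

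Within glutamate the fall took place between 3 and 27 h. Of the 151 loci, 146 were lower at 27 h than at 3 h and 0 were higher, where 15.9% of all tested loci were lower and 15.7% higher. Their median log2 fold change was -1.21 (range -2.17 to -0.40), against 0.04 over all tested loci and -0.21 over the other abundant loci, of which 163 were lower and 48 higher. In 148 loci all 3 libraries of 27 h lay below all 3 of 3 h, as in 22.7% of all tested loci. The 5 loci that did not pass were Locus_97, Locus_17654, Locus_18679, Locus_2 (-0.50, edgeR adjusted p = 0.0899) and Locus_2343 (-0.64, edgeR adjusted p = 0.103).

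Locus_1025 changed most. It stood at 29.2, 34.4 and 38.2 CPM at 27 h and 139, 167 and 155 CPM at 3 h (log2 fold change -2.17 with SE 0.17, adjusted p = 5.01e-12 by edgeR). Locus_308 stood at 25.2, 20.5 and 20.8 CPM at 27 h and 91.9, 96.9 and 78.6 CPM at 3 h (log2 fold change -2.01 with SE 0.18, adjusted p = 6.48e-11 by edgeR). In both, every library of 27 h lay far below every library of 3 h. Against the inoculum, 140 loci were lower in glutamate at 27 h and 0 higher, where 13.4% of all tested loci were lower and 13.3% higher, with a median of -1.08 against 0.03 over all tested loci. The strongest of these was Locus_1014, at 54.9, 67.5 and 85.7 CPM in glutamate at 27 h and 504, 512 and 510.1 CPM in the inoculum (log2 fold change -2.87 with SE 0.26, adjusted p = 6.22e-11 by edgeR). Locus_460 was at 85.5% of its inoculum level, the highest share of all, and was not called (log2 fold change -0.23 with SE 0.17, adjusted p = 0.36 by edgeR).

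Within run 1 the fall from 3 to 27 h was called in 138 loci (median -1.27), where 18.9% of all tested loci were called in either direction. Run 2 held a lone library of each time. Against the inoculum the median was -0.97 within run 1 and -1.15 within run 2, where all tested loci had 0.02 and 0.01. Each of these fits had a lone library on one side. On log2(TPM + 1) values limma called 27 loci lower from 3 to 27 h and 17 against the inoculum, at medians of -1.01 and -0.93. It called 3.95% and 4.47% of all loci fitted in either direction.

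After 27 h the level in glutamate was not detectably different. Between 51 and 27 h edgeR called 0 loci lower and 0 higher, where 0.114% of all tested loci were lower and 0.125% higher. The unadjusted p by edgeR was under 0.05 in 22 of the 151, and in 1667 of the 17569 tested loci. DESeq2 called 2 lower and 1 higher, where it called 0.714% of all tested loci in either direction. With the replicate number as a block edgeR called 0 lower and 1 higher, where 0.558% of all tested loci were called in either direction. The median log2 fold change was -0.09, and the 95% interval of the change lay within 2-fold in 144 loci. The ratio of the summed levels of the 148 loci, 51 h over 27 h, was 0.999. On log2(TPM + 1) values the median of the 151 loci was 0.48 and that of all tested loci 0.50.

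In glutamine the loci fell later, between 27 and 51 h. At 51 h 82 of the 151 were lower than at 27 h and 1 was higher, where 5.03% of all tested loci were lower and 4.66% higher. The median log2 fold change was -0.57, with quartiles of -0.75 and -0.35, against -0.01 over all tested loci. Of the other abundant loci 66 were lower and 39 higher, with a median of 0.06. The fall was at least 2-fold in 11 of the 151, and in 108 all libraries of 51 h lay below all of 27 h, as in 14.7% of all tested loci. The summed level of the 148 loci was 0.708 times that of 27 h.

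The largest fall was in Locus_4676, at 34.3, 36.0 and 54.9 CPM at 51 h and 94.4, 94.2 and 139.8 CPM at 27 h (log2 fold change -1.38 with SE 0.27, adjusted p = 4.55e-04 by edgeR). Replicate 3 was the highest library of each time. Locus_749 had 56.2, 84.3 and 39.5 CPM at 51 h and 153, 168 and 112 CPM at 27 h (log2 fold change -1.27 with SE 0.23, adjusted p = 1.54e-04 by edgeR). Locus_4603 had 67.6, 72.6 and 52.9 CPM at 51 h and 169.7, 158 and 125 CPM at 27 h (log2 fold change -1.23 with SE 0.17, adjusted p = 3.80e-06 by edgeR). The times did not overlap in any of these loci, nor in Locus_335 (-1.18, edgeR adjusted p = 2.28e-05) and Locus_3895 (-1.17, edgeR adjusted p = 1.42e-04).

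The locus that rose was Locus_1014, at 256, 335 and 271 CPM at 51 h and 117, 159.97 and 193 CPM at 27 h (log2 fold change 0.87 with SE 0.24, adjusted p = 0.0157 by edgeR). All 3 libraries of 51 h were above those of 27 h. Without replicate 1 of 27 h its adjusted p by edgeR was 0.122, without replicate 2 of 51 h it was 0.0730, and within run 2 it was 0.0612. Next in order, and not called, were Locus_17654 (0.48, edgeR adjusted p = 0.774) and Locus_18679 (0.48, edgeR adjusted p = 0.785). Locus_1356 (0.14, edgeR adjusted p = 0.723) and Locus_1098 (0.10, edgeR adjusted p = 0.813) followed without a call, with fold changes of -0.22 and -0.25 on log2(TPM + 1).

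The 82 loci that fell in glutamine and the 68 that were not called there are set side by side as a description, since the division rests on the glutamine libraries. Their median log2 fold change of glutamate against glutamine was -1.38 and -1.18 at 27 h, and -0.73 and -0.89 at 51 h. Within glutamate, from 3 to 27 h, it was -1.35 in the loci that fell in glutamine and -1.15 in the others. Their median relative length was 0.945 and 0.654 times that of the 2925 loci for which such a length was set. The fold change of glutamate at 3 h against the inoculum had medians of 0.23 and 0.04.

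The count of 82 rested in part on single libraries. It was 48 without replicate 3 of 27 h and 51 without replicate 2 of 51 h. With the run as a covariate it was 89. Within run 2, which held 2 libraries of each time, it was 36 (median -0.53), where 5.21% of all tested loci were called in either direction. Locus_749 was among those not called there (edgeR adjusted p = 0.0675). Over all libraries limma on log2(TPM + 1) values called 1 lower at a median of -0.90, where that of all tested loci was -0.27. It called 0.446% of all loci fitted in either direction.

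Whether the loci followed different courses in the 2 amino acids was tested as the change from 27 to 51 h in glutamate minus that in glutamine. The difference was positive in 23 of the 151 loci and negative in 0, where 1.38% of all tested loci were called positive and 2.61% negative. The median difference was 0.47 on the log2 scale, against 0.04 over all tested loci. Of the 547 other abundant loci 44 were positive and 24 negative, with a median of -0.11. Locus_3895 had the largest difference, with 44.2, 40.1 and 46.9 CPM at 51 h and 32.4, 26.8 and 35.3 CPM at 27 h in glutamate, and 41.3, 53.8 and 49.8 CPM at 51 h and 105, 119.6 and 102 CPM at 27 h in glutamine (difference 1.64, SE 0.29, edgeR adjusted p = 3.60e-04). In glutamate each library of 51 h was above all of 27 h, and in glutamine each was below. Locus_7299 (difference 1.52, SE 0.37, edgeR adjusted p = 0.0116) and Locus_545 (difference 1.29, SE 0.20, edgeR adjusted p = 6.25e-05) followed.

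With the replicate number as a block 35 loci were positive, and DESeq2 called 43. The count was 13 without replicate 1 of glutamate at 27 h, 13 without replicate 3 of glutamine at 27 h, 14 without replicate 2 of glutamate at 27 h, and 15 without replicate 3 of glutamate at 51 h or replicate 1 of glutamine at 27 h, and it was 26 with the run as a covariate. The fits within run 1 and run 2 gave 0 calls at medians of 0.61 and 0.44, from lone libraries in 3 of the 4 groups in run 1 and in 1 of the 4 in run 2, so that their lack of calls says little about the run.

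**Figure D4:**
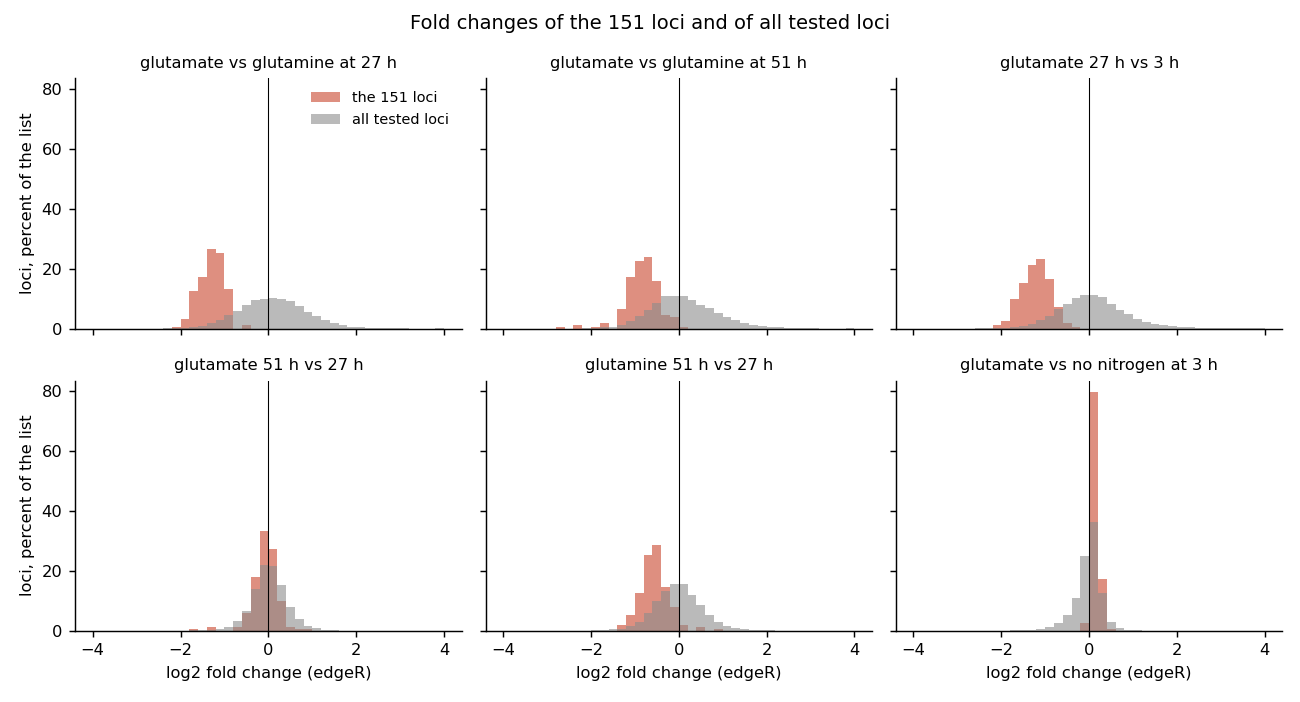
Distribution of edgeR's log2 fold change in 6 comparisons that the choice of loci did not use, for the 151 loci (red) and all 17569 tested loci (grey), each as percent of its list. Values beyond 4 are drawn in the last bin. The 151 loci lie left of 0 in glutamate against glutamine at 27 h (median -1.26) and in glutamate at 27 h against 3 h (-1.21), less so against glutamine at 51 h (-0.81, which was 0.06 on log2(TPM + 1)) and in glutamine at 51 h against 27 h (-0.57), and around 0 in the other panels.

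The first 3 h after transfer left most of the loci near their inoculum level. In glutamate at 3 h 1 locus was lower and 4 were higher than in the inoculum, where 0.911% of all tested loci were lower and 0.729% higher, and the median log2 fold change was 0.11. Without nitrogen 2 were lower and 2 higher, where 1.21% of all tested loci were lower and 0.951% higher, with a median of -0.02 on counts and 0.18 on log2(TPM + 1), where all tested loci had 0.16. Of the 547 other abundant loci 6 were lower and 20 higher in glutamate, and 9 were lower and 12 higher without nitrogen. Among the 151 loci the 95% interval lay within 2-fold in 143 for glutamate and 146 without nitrogen.

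Locus_1014 was the locus lower in glutamate, at 194, 273 and 222 CPM at 3 h and 504, 512 and 510.1 CPM in the inoculum (log2 fold change -1.15 with SE 0.24, adjusted p = 0.00474 by edgeR). Its inoculum libraries were nearly equal and all libraries of 3 h were far below them. It was lower without nitrogen too, at 202, 240.2 and 246 CPM (log2 fold change -1.15 with SE 0.24, adjusted p = 0.00441 by edgeR), together with Locus_1098 at 81.3, 107 and 91.9 CPM without nitrogen and 139, 135 and 169 CPM in the inoculum (log2 fold change -0.66 with SE 0.18, adjusted p = 0.045 by edgeR). Among the loci that were higher, Locus_2045 had 119, 119 and 115 CPM in glutamate and 113, 108 and 111 CPM without nitrogen, against 58.2, 71.2 and 84.6 CPM in the inoculum (log2 fold change 0.72 with SE 0.16, adjusted p = 0.00901 by edgeR in glutamate; 0.63 with edgeR adjusted p = 0.0238 without nitrogen). Every 3 h library of either medium lay above every inoculum library. Locus_1333 was higher in both media (0.58 with edgeR adjusted p = 0.0144 in glutamate), and Locus_1724 (0.58, edgeR adjusted p = 0.0199) and Locus_4672 (0.54, edgeR adjusted p = 0.0375) in glutamate. Locus_54 (-0.55, edgeR adjusted p = 0.16) and Locus_87 (0.59, edgeR adjusted p = 0.349) were near the ends of the range without passing.

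With the run as a covariate 1 locus was lower and 5 were higher in glutamate at 3 h. Within each run, where one side of each comparison was a lone library, 0 loci passed in either direction, and Locus_1014 stood in glutamate at -1.10 in run 1 and -1.19 in run 2. In glutamate Locus_1014 missed the threshold of edgeR's adjusted p without replicate 1 of glutamate (0.0536), Locus_2045 without replicate 1 of the inoculum (0.128), and Locus_1724 without replicate 1 (0.143) or replicate 2 (0.0674) of glutamate or replicate 1 (0.164) or replicate 2 (0.0555) of the inoculum. The count higher in glutamate was 0 without replicate 1 of the inoculum and 1 without replicate 1 of glutamate, and the median in glutamate was 0.35 within run 1 and -0.02 within run 2.

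No difference between glutamate and no nitrogen was detectable at 3 h. edgeR called 0 of the 151 loci in either direction, and 0.0% of all tested loci, the unadjusted p was under 0.05 in 0 of the 151, and the count by DESeq2 was 0. The median log2 fold change was 0.14, or -0.06 on log2(TPM + 1), where all tested loci had -0.15, and the 95% interval lay within 2-fold in 148 loci.

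Against the inoculum, glutamine at 27 h was higher in 20 of the loci and lower in 2, where 2.33% of all tested loci were higher and 3.15% lower, with a median of 0.20 against -0.01 over all tested loci. Of the other abundant loci 53 were higher and 15 lower. Locus_460 had the largest rise, at 271, 219 and 267 CPM in glutamine and 87.9, 105 and 142 CPM in the inoculum (log2 fold change 1.18 with SE 0.18, adjusted p = 1.51e-05 by edgeR). All glutamine libraries exceeded all inoculum libraries. Locus_2 had 380.2, 344 and 457 CPM in glutamine and 142, 194 and 256 CPM in the inoculum (log2 fold change 1.00 with SE 0.23, adjusted p = 0.00444 by edgeR), and Locus_3979 had 115, 104 and 122 CPM in glutamine and 64.5, 62.5 and 64.8 CPM in the inoculum (log2 fold change 0.83 with SE 0.16, adjusted p = 5.54e-04 by edgeR). The inoculum replicates of Locus_3979 were nearly equal, whereas those of Locus_2 ran from 142 to 256 CPM. Locus_2 missed the threshold without replicate 1 of the inoculum (edgeR adjusted p = 0.0649).

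The loci that fell were Locus_1014, at 117, 159.97 and 193 CPM in glutamine and 504, 512 and 510.1 CPM in the inoculum (log2 fold change -1.70 with SE 0.25, adjusted p = 1.04e-05 by edgeR), and Locus_322, at 93.8, 80.1 and 87.9 CPM in glutamine and 124, 139 and 149 CPM in the inoculum (log2 fold change -0.65 with SE 0.16, adjusted p = 0.0112 by edgeR). Neither overlapped between groups. Locus_322 missed the threshold without replicate 2 of glutamine (edgeR adjusted p = 0.0673) or replicate 3 of the inoculum (0.0551). The count of 20 depended on single libraries. It was 5 without replicate 1 of the inoculum, 12 without replicate 2 of the inoculum, 10 and 11 without replicates 3 and 1 of glutamine, 4 within run 2, and 31 with the replicate number as a block or without the 3 libraries set apart earlier.

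Locus_1014, the locus most below its inoculum level in glutamate at 27 h, had 157, 266 and 220.5 CPM in glutamine and 202, 354 and 234 CPM in nitrate at 3 h, below every inoculum library. It reached 54.9, 67.5 and 85.7 CPM at 27 h and 100.3, 119 and 154 CPM at 51 h in glutamate, a change that was not called (log2 fold change 0.84 with SE 0.24, adjusted p = 0.166 by edgeR), and rose in glutamine. In nitrate, whose libraries helped to choose the loci, it had 157, 213 and 202 CPM at 27 h and 592, 1003 and 792 CPM at 51 h, the largest increase of the 151 (log2 ratio 2.06, with no test), followed by Locus_1098 at 1.29. Over all 151 loci the median ratio of nitrate at 51 h to 27 h was -0.08. Locus_1098 was at 29.2, 28.7 and 29.1 CPM in glutamate at 27 h and 93.6, 88.2 and 116 CPM in glutamine at 27 h (log2 fold change -1.78 with SE 0.19, adjusted p = 3.73e-09 by edgeR), so its glutamate replicates agreed closely while the groups were far apart.

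**Figure D5:**
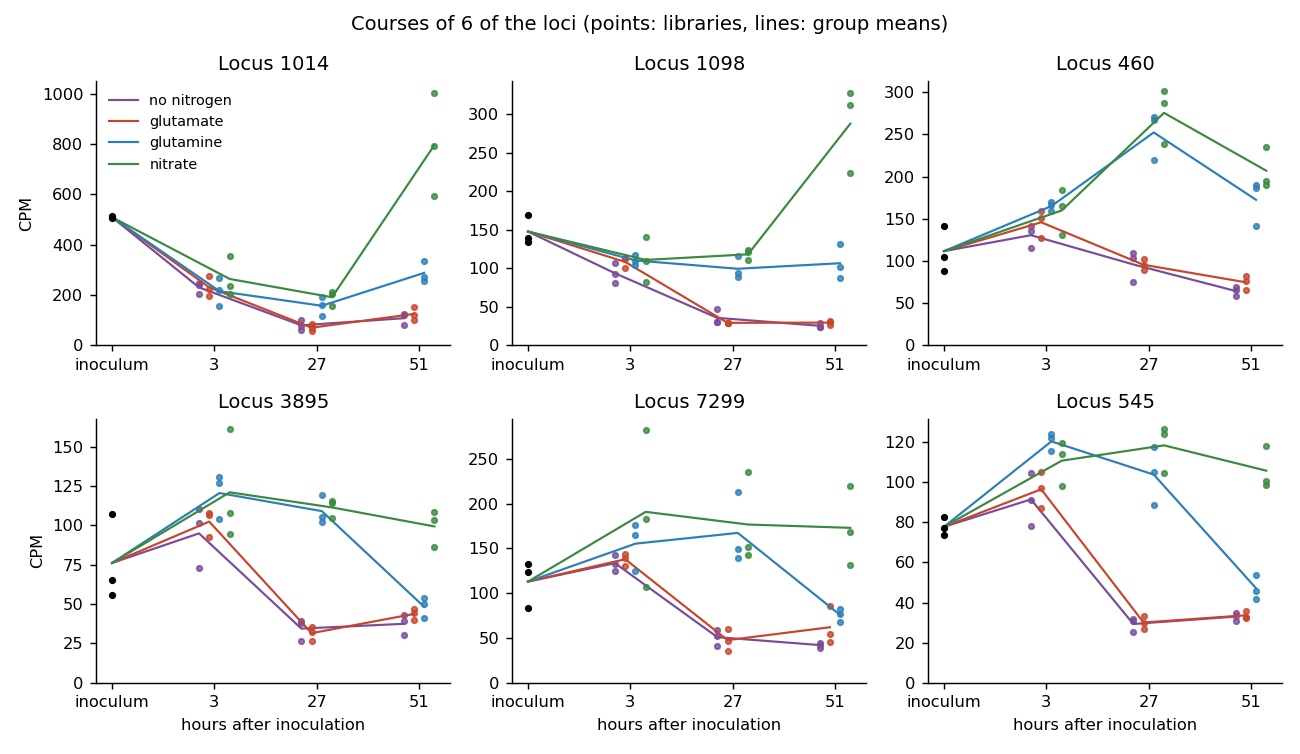
CPM of 6 of the loci against hours after inoculation, in no nitrogen, glutamate, glutamine and nitrate, with libraries as points and group means joined by lines, and the inoculum in black at the left. Locus_1014 is at 592 to 1003 CPM in nitrate at 51 h and at 256 to 335 CPM in glutamine, Locus_460 is highest at 27 h in glutamine and nitrate, and Locus_3895, Locus_7299 and Locus_545 come down between 27 and 51 h in glutamine.

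The 3 most abundant loci were Locus_97, Locus_18679 and Locus_17654, which also had the highest TPM of the 151 in nitrate at 27 h. Together they took 1.06, 0.747 and 0.511% of all counts in the glutamate replicates of 27 h and 1.80, 1.49 and 1.42% in the glutamine replicates. They were the 3 loci not called lower in glutamate at 27 h. Locus_97 had 6732, 5055 and 1871 CPM in glutamate and 12373, 7853 and 7862 CPM in glutamine (log2 fold change -1.04 with SE 0.64, adjusted p = 0.213 by edgeR). Locus_18679 had 5065, 1742 and 1139.8 CPM in glutamate and 5489.9, 3263 and 3280.2 CPM in glutamine (log2 fold change -0.60 with SE 0.76, adjusted p = 0.58 by edgeR), and Locus_17654 had 2399.99, 1321 and 561 CPM in glutamate and 2737, 1782 and 1603 CPM in glutamine (log2 fold change -0.52 with SE 0.74, adjusted p = 0.624 by edgeR). In Locus_18679 and Locus_17654 the highest glutamate library lay inside the glutamine range, but within each replicate number glutamate was below glutamine in all 3 loci. With the replicate number as a block none of the 3 passed (edgeR adjusted p = 0.0762 for Locus_97, 0.323 for Locus_18679 and 0.411 for Locus_17654). Locus_97 passed when only these 6 libraries were fitted (edgeR adjusted p = 0.0319), with the run as a covariate (0.0366) and without the 3 libraries set apart earlier (0.0444).

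At 51 h all 3 were called lower in glutamate, whereas the test of the difference between 27 and 51 h called none of them (difference -1.31 and edgeR adjusted p = 0.51 for Locus_97, -2.16 and 0.326 for Locus_18679, -1.81 and 0.408 for Locus_17654). Locus_18679 had 1615, 818 and 51.4 CPM in glutamate and 6287, 5062 and 5424 CPM in glutamine (log2 fold change -2.76 with SE 0.81, adjusted p = 0.0116 by edgeR). Locus_97 had 3395, 1714 and 277 CPM in glutamate and 13419, 6352 and 7702 CPM in glutamine (log2 fold change -2.35 with SE 0.66, adjusted p = 0.00841 by edgeR). Locus_17654 had 1230.1, 451 and 27.6 CPM in glutamate and 3454, 2429.8 and 2656 CPM in glutamine (log2 fold change -2.32 with SE 0.77, adjusted p = 0.0242 by edgeR). No glutamate library of 51 h reached a glutamine library in any of them, and replicate 3 of glutamate was the lowest by a wide margin. Without that library the log2 fold changes were -2.21 for Locus_18679 (edgeR adjusted p = 0.0485), -1.86 for Locus_97 (0.0472) and -1.77 for Locus_17654 (0.0833), and Locus_17654 also missed the threshold without replicate 2 of glutamate (0.0936) or replicate 3 of glutamine (0.0633), and when the compared groups alone were fitted (0.0670).

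The 3 loci moved together across libraries of one group. In replicate 3 of glutamate at 51 h and in replicate 2 of nitrate at 3 h they were at least 8-fold below the geometric mean of the other libraries of their group, and they were the only ones of the 151 to be so. How many loci outside the 151 lay so far below was not counted, so this is not shown to be particular to them. In nitrate at 3 h Locus_97 had 11467, 774 and 6601 CPM and Locus_18679 6371, 165 and 3848 CPM. In those same 2 libraries the median of the 151 loci lay 0.13 and 0.42 above that mean on the log2 scale, and that of the other abundant loci 0.09 and 0.28. In each of the 6 groups of glutamate and glutamine, replicate 1 had the highest level of each of the 3 loci. This did not hold in every group. In the inoculum replicate 3 had the highest level of each, and in no nitrogen at 3 h replicate 2 did.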

How the data were processed

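Total RNA of whole cells was depleted of ribosomal RNA with a plant leaf kit and made into strand-specific libraries, which were read as 125 bp single ends in 2 runs, per the labels' protocols. The authors deposited whole-number read counts and TPM values for 18495 loci in 39 libraries. The tools listed, per the submitters' processing notes, include edgeR 3.4.0, RSEM, STAR and FastQC, without roles. The counting used a genome build, annotation and strand setting not given in the sources used here, and reads shared by near-identical or overlapping loci cannot be told apart.

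The members and lists were chosen with earlier results of these data known. Counts were fitted with edgeR 4.0.16 in R 4.3.3 (filterByExpr, TMM, quasi-likelihood F test, a mean per group over all 39 libraries, Benjamini-Hochberg over 17569 loci). The filter removed 926 loci and none of the 151. Standard errors are approximate, as the log2 fold change divided by the square root of F. Groups hold 3 biological replicates each, per the labels. Loci named in the text are the 10 with the highest nitrate level at 27 h, the 3 with the highest TPM there, the 3 or 5 at each end of the fold changes of single comparisons, those nearest each threshold, and the few calls outside these that were named after their values were seen (Locus_1333, Locus_4672 and Locus_2343).

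Because each replicate number shares an inoculum, per the labels, the numbers pair the libraries. The mean correlation of deviations from group means was 0.0964 over 234 pairs of the same number and -0.0477 over other pairs, and 49.6% of the 234 were over 0.1. Between replicates of a group, chi-square divided by its degrees of freedom was 5.63 or more, so no libraries were merged. Alternatives were the replicate block, run as covariate, fits within a run, DESeq2 1.42.0, RLE factors, no filter, fits of the compared groups alone, limma 3.58.1 on log2(TPM + 1) and log2(TPM + 0.1), and leaving out libraries. The number of columns without a sample was 0. Only the edgeR fit of glutamate against glutamine at 27 h was tried on simulated counts. These had the same dispersion for every locus and no replicate or run effects, and the alternatives were not tried on them.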

Additional observations from a re-analysis of the deposited data

Results flagged for a closer look

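Among the 151 loci the change from 27 to 51 h differed between glutamate and glutamine in 23, by edgeR's test of the difference itself, and in all 23 the change in glutamate minus that in glutamine was positive. Of all tested loci 1.38% were called positive and 2.61% negative. Of the 547 other abundant loci 44 were positive and 24 negative. On log2(TPM + 1) values limma called 0 of the 151 in either direction, and 0.131% of all loci fitted. The largest differences, on the log2 scale, were 1.64 in Locus_3895, 1.52 in Locus_7299 and 1.29 in Locus_545. In Locus_7299 the level was 45.6, 54.9 and 85.4 CPM at 51 h and 35.3, 47.2 and 60.4 CPM at 27 h in glutamate, and 77.3, 67.3 and 82.7 CPM at 51 h and 139, 149.8 and 213 CPM at 27 h in glutamine. In Locus_545 it was 32.8, 32.2 and 36.0 CPM at 51 h and 29.7, 27.0 and 33.5 CPM at 27 h in glutamate, and 41.8, 45.7 and 53.8 CPM at 51 h and 105, 88.9 and 117 CPM at 27 h in glutamine. The glutamine libraries separated by time in both loci, and the glutamate libraries overlapped. Within run 1 and run 2 the differences were 1.96 and 1.41 in Locus_3895, 1.03 and 1.50 in Locus_7299 and 1.58 and 1.09 in Locus_545, none of them called, from lone libraries in 3 of the 4 groups in run 1 and in 1 of the 4 in run 2. Locus_7299 also missed the threshold of edgeR's adjusted p without replicate 1 of glutamate at 27 h (0.0558), replicate 3 of glutamate at 51 h (0.0658) or replicate 3 of glutamine at 27 h (0.0608).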

How the results depend on the processing

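The lower calls of glutamate against glutamine at 27 h and of glutamate at 27 h against 3 h numbered 141 to 149 and 138 to 148 loci under the count-based settings run. On TPM values limma called 65 (pseudocount 1) and 64 (0.1) loci lower at 27 h, 3 and 3 at 51 h, 27 and 26 from 3 to 27 h, 17 and 17 against the inoculum, and 1 lower and 0 higher in glutamine from 27 to 51 h. With pseudocount 1 it called 31.0% of all loci fitted in either direction at 51 h, and at most 4.47% in the others of these comparisons. TPM also gave 0 calls in either direction for glutamate and no nitrogen at 3 h and glutamine at 27 h against the inoculum and for the time-course difference. The TPM medians were 0.0600 and 0.0598 for glutamate against glutamine at 51 h, -1.01 and -1.03 for glutamate from 3 to 27 h, 0.48 and 0.49 for glutamate from 27 to 51 h, -0.90 and -0.92 for glutamine from 27 to 51 h, 0.42 and 0.42 for glutamine against the inoculum, -0.0597 and -0.0611 for glutamate against no nitrogen, and 1.38 and 1.39 for the time-course difference. TPM values are not scaled by TMM. Their medians over all loci were 0.77 and 0.92 for glutamate against glutamine at 51 h, and 0.80 and 0.96 for the time-course difference. The direction relative to the median over all loci was kept at both amino acid comparisons.

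DESeq2 called 2 lower and 1 higher in glutamate from 27 to 51 h, 2 lower and 11 higher in glutamate at 3 h, 6 higher without nitrogen at 3 h, 31 higher in glutamine against the inoculum and 43 in the time-course difference. The replicate block gave 1, 31 and 35 higher for glutamate from 27 to 51 h, for glutamine against the inoculum and for the difference, and changed no other call of a list by over 1.5 times. Fitting the compared groups alone gave 0 higher in glutamate at 3 h and 1 lower and 0 higher without nitrogen. Run as a covariate and no filter each gave 1 lower without nitrogen. Within run 1 and run 2 there were 0 calls in either direction for both 3 h comparisons (median 0.35 in glutamate in run 1) and 0 for the difference, 72 lower in glutamate at 27 h against the inoculum in run 1, and in run 2 36 lower and 0 higher in glutamine from 27 to 51 h and 4 higher against the inoculum. Without the 3 libraries set apart earlier, 2 loci were lower in glutamate at 3 h and 31 higher in glutamine against the inoculum.

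Leaving out 1 library of a comparison gave 146 to 148 lower for glutamate against glutamine at 27 h and 103 to 134 at 51 h (median -0.96 to -0.72), 142 to 145 for glutamate from 3 to 27 h, 134 to 140 against the inoculum, 48 to 81 lower and 0 to 1 higher for glutamine from 27 to 51 h, 0 to 1 lower and 0 to 3 higher in glutamate at 3 h, 0 to 2 lower and 0 to 1 higher without nitrogen, 1 to 2 lower and 5 to 20 higher in glutamine against the inoculum, and 13 to 23 for the difference.

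The choice itself gave 149 loci (148 shared) with a pseudocount of 1, 148 (141) with 50, 153 (134) with the median of replicates, 180 (148) on TMM-scaled counts, and 141 to 171 without a library. Lists chosen on TMM-scaled counts or without 2 of the libraries set apart earlier, alternatives chosen after seeing the data, kept every count within 1.5 times except 1 higher without nitrogen at 3 h for the list without those libraries.

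Single loci changed sign in 30 results by setting, and in glutamate against glutamine at 51 h on TPM (pseudocounts 1 and 0.1) these were Locus_439 at 0.78 and 0.79, Locus_456 at 0.73 and 0.73, Locus_660 at 0.32 and 0.32, Locus_626 at 0.30 and 0.30, Locus_444 at 0.0729 and 0.0730 and Locus_62 at 0.29 and 0.29. Locus_2045, at 0.00 there, was at -0.00340 with DESeq2, -0.0972 without the 3 libraries, -0.0727 within run 2 and -0.16 to 0.15 without single libraries. In glutamine from 27 to 51 h Locus_97 was at 0.0444 in the compared groups alone and -0.39 to 0.22 without single libraries, Locus_1356 at -0.22 and -0.22 and Locus_1098 at -0.25 and -0.26 on TPM, and without single libraries Locus_1356 at -0.0406 to 0.26, Locus_1098 at -0.0835 to 0.25 and Locus_626 at -0.22 to 0.0802. The causes of these changes were not tested. Each of the 151 loci had 29 counts or more in every library, so no value rests on a count near 0.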
